A study of Mus musculus with 24 samples.

Results

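Lungs of old mice were compared after 1 h of reperfusion and after a sham operation, across all genes measured by RNA sequencing. Members were chosen by the column labels of the deposited table: 4 libraries of old lungs after 1 h of reperfusion (old 1 h) and 4 of old sham-operated lungs (old sham), 8 of the 24 libraries of the series. All mice were wild-type male C57BL/6J, and the old animals were 22 to 24 months of age. In the old 1 h group the left hilum, with its artery, vein and bronchus, was clamped for 60 min and then opened for 1 h; the old sham group is labelled sham, with no further detail. The labels do not give the time at which sham lungs were taken or the side or lobe that was used. Nor do they say whether each library is a separate animal. The p-values rest on the spread within groups over all 24 libraries of the series, and that spread may therefore be technical. Old lungs after 1 day of reperfusion, and lungs of young mice (8 to 12 weeks) after 1 h of reperfusion or a sham operation, with 4 libraries in each group, served for values set side by side.

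When blood flow returns to an ischemic organ, oxidants are formed, proteins misfold and cells come under mechanical strain. Immediate early genes such as those of the FOS, JUN and EGR families are then transcribed from factors already present in the cell, heat shock factor 1 switches on chaperone genes, and NF-kB switches on chemokines and adhesion molecules that bring in leukocytes. The lung is exposed to this after transplantation. Its gas-exchange surface is made of flat alveolar type 1 cells, surfactant-secreting alveolar type 2 cells and a dense capillary bed that holds many neutrophils even at rest.

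Values are CPM, counts scaled by library totals with TMM factors. Changes are log2 ratios of old 1 h over old sham with their standard error (SE) from edgeR. A gene is said to rise or fall where its Benjamini-Hochberg adjusted p over all 19690 genes tested was under 0.05. Of the 45777 gene symbols in the table, 19690 passed the low-count filter. Old 1 h libraries held 29144117 to 32909231 estimated reads and old sham libraries 29863241 to 43600154. The lung markers Sftpc (surfactant protein C), Ager (type 1 cells), Scgb1a1 (club cells) and Pecam1 (endothelium) were high in all 8 libraries, with at least 4305, 746, 13849 and 679.7 CPM in the lowest library of each.

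Some libraries stood apart within their group. The first principal component of the 8 libraries (54.6% of the variance) separated old 1 h from old sham, and the second (14.4%) set old 1 h 1 apart from the other 7. Old 1 h 1 held the most neutrophil mRNA: the summed level of 22 neutrophil markers was 9195, 2661, 3554 and 4920.2 CPM in old 1 h and 1435, 1889, 1444 and 1457 CPM in old sham. Old sham 4 carried cardiac-type muscle mRNA at the level of the old 1 h libraries, with 2701, 5456, 3975 and 3276 CPM in old 1 h and 704, 834, 797 and 3579 CPM in old sham for 14 genes of the pulmonary vein muscle sleeve and heart. It also carried mRNA of secretory cells of the larger airways, such as Reg3g at 148, 81.8, 50.4 and 40.8 CPM in old 1 h and 0.123, 0, 0.454 and 20.9 CPM in old sham. Old sham 1 had the most mesothelial mRNA, with Upk3b at 5.02, 5.63, 2.85 and 4.73 CPM in old 1 h and 94.7, 25.7, 40.2 and 11.6 CPM in old sham. Old sham 2 had the highest early response genes of its group, and old sham 4 the lowest, with a summed level of 13 AP-1 and ATF genes of 6897, 8783, 8624 and 10539 CPM in old 1 h and 1922, 3561, 1841 and 1256 CPM in old sham. In old 1 h 3 the clock output gene Tef stood at 68.1 CPM, against 165 to 258 CPM in the other old 1 h libraries. Where leaving out 1 library, or both old 1 h 1 and old sham 4, gave or ended the call of a gene named here, a value from such a fit is given beside it.

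**Figure D1:**
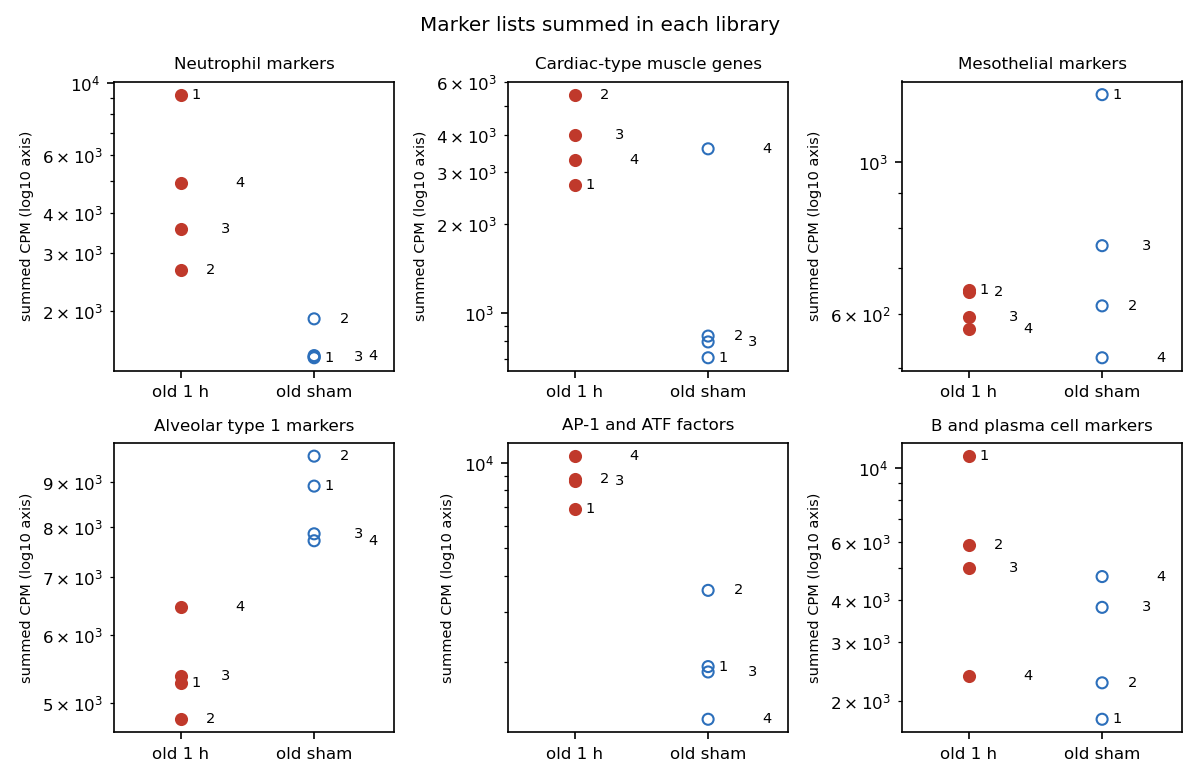
Summed CPM of 6 marker lists in each of the 8 libraries, on a log10 axis, old 1 h left of old sham; each number is the library's replicate number. Old 1 h 1 lies above its group for neutrophil markers, old sham 4 lies with the old 1 h libraries for cardiac-type muscle genes, old sham 1 lies above its group for mesothelial markers, and the alveolar type 1 markers of the groups do not overlap.

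After 1 h, 2475 genes were higher (12.6% of those tested) and 2487 were lower (12.6%) in old 1 h than in old sham lungs. Rises were larger than falls: 861 genes rose by more than 2-fold (4.37%), 227 by more than 4-fold and 88 by more than 8-fold. By contrast, 363 fell by more than 2-fold (1.84%), 54 by more than 4-fold and 26 by more than 8-fold. The gap depended on the scale: on log2(TPM + 0.1), 707 rose and 663 fell by more than 2-fold, and on log2(TPM + 1), 494 and 188. The median change was 0.75 among genes that rose, -0.53 among genes that fell and 0.00 over all genes tested. The libraries of the groups did not overlap for 6393 genes (32.5%). Genes that changed by more than 2-fold were short in the genome: the median distance from the annotated start to the end was 10.7 kb for those that rose and 9.96 kb for those that fell, against 17.8 kb over all genes tested. Across genes, the change had little relation to the GC content of the transcript (Spearman's rho -0.0117 across 17994 genes, which are not independent replicates).

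**Figure D2:**
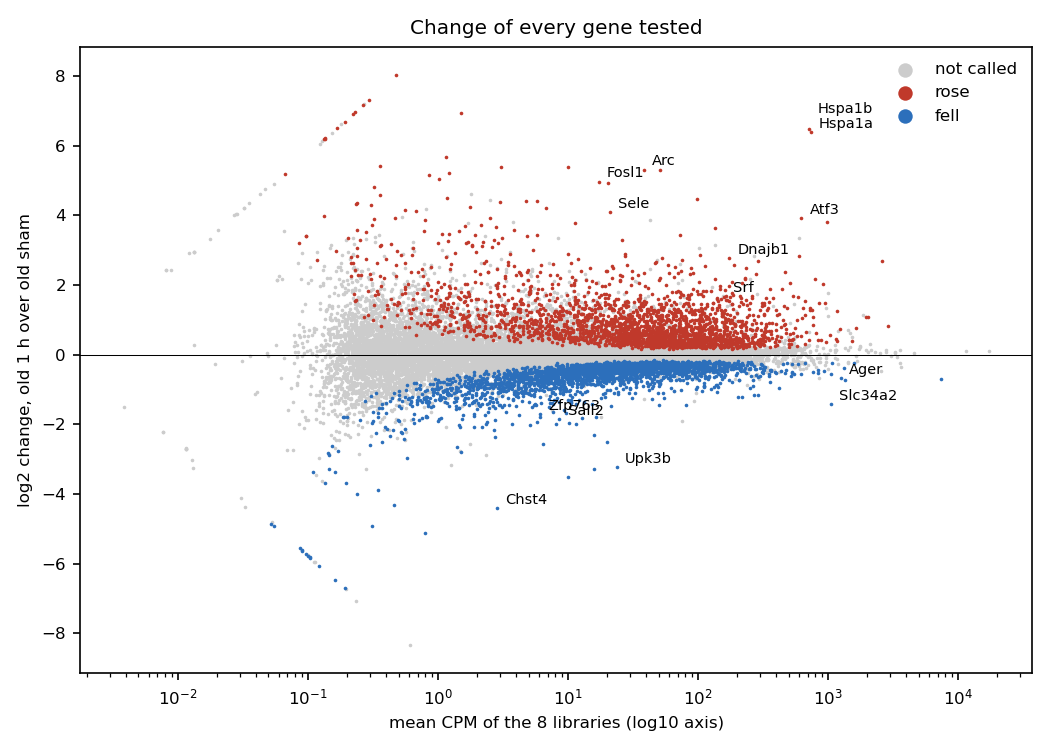
Log2 change (old 1 h over old sham, vertical axis) against the mean CPM of the 8 libraries (horizontal log10 axis) for the 19690 genes tested; genes that rose are red, genes that fell are blue, and the named genes carry labels. More genes lie beyond a 2-fold rise (861) than beyond a 2-fold fall (363), and at high CPM Hspa1a and Hspa1b lie above all others.

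Chaperone genes rose nearly as a group. Among 22 genes of the HSP70 and HSP110 chaperones and their J-domain partners, which bind unfolded proteins, 18 rose and none fell (12.6% of all genes rose), with a median of 0.74 against 0.00 over all genes. Hspa1a and Hspa1b encode the stress-inducible HSP70 and are nearly identical in sequence, so that reads may be split between them. They shared the smallest adjusted p of all genes with Dnajb1 and Srf. Among named genes that passed, had 5 CPM or more in whichever group was higher and did not overlap, they also had the largest rises. Hspa1a stood at 1316, 1989.6, 1515 and 1019 CPM in old 1 h libraries 1 to 4, against 16.9, 21.8, 18.7 and 12.3 CPM in old sham libraries 1 to 4. Hspa1b stood at 1341, 1929, 1466 and 943 CPM in old 1 h and 15.8, 18.1, 18.6 and 12 CPM in old sham. The groups did not overlap for either gene, and the log2 changes were 6.39 ± 0.34 and 6.46 ± 0.35 (edgeR adjusted p = 1.35e-10 for each).

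Both genes lie on chromosome 17 of the mm10/GRCm38 assembly, 12.9 kb apart. The 250 bases before their annotated starts are shown because they carry the paired heat shock element on which heat shock factor 1 is known to act and because they differ between the genes at 3 of 250 positions. The sequences are from RefSeq on GRCm38.p6, on the minus strand at chr17:34972157-34972406 and chr17:34959239-34959488, and the capitals mark the motif GAANNTTC, which starts 104 bases before each gene's start.
Hspa1a: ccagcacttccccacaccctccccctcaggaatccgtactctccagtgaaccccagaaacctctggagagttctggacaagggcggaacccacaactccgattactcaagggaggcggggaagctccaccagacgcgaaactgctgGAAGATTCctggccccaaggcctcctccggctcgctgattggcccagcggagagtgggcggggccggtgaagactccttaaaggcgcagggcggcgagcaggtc
Hspa1b: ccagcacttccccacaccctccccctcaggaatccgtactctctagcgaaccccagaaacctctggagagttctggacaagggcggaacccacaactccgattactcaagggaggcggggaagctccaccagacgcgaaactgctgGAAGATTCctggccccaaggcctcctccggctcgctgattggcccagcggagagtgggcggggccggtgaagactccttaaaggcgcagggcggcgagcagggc
The motif, which reads the same on both strands, was present in 5 of 21 promoters of this HSP70 list (Dnaja1, Dnaja4, Dnajb6, Hspa1a and Hspa1b). It was in 6 of 18 promoters of the HSP90 and small HSP list. Over all genes tested it was in 6.19% of promoters, and in 6.97% of those that rose by more than 2-fold. It was not particular to chaperones: 3 of 15 promoters of NF-kB subunits and inhibitors and 2 of 12 of AP-1 and ATF genes held it. So did 2 of 13 of coagulation genes, 1 of 6 of neutrophil-attracting chemokines and 1 of 13 of MAPK phosphatases and feedback genes. None of 6 promoters of the IL-6 and colony stimulating factor family held it.

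Hspa1l, the testis-type HSP70 gene that starts 547 bases from Hspa1a on the opposite strand, was at 17.5, 29.4, 23 and 15 CPM in old 1 h and 1.23, 1.79, 1.7 and 1.51 CPM in old sham. It rose by 3.76 ± 0.30 (edgeR adjusted p = 3.65e-08). Dnajb1, the J-domain partner that hands clients to HSP70, was at 259.9, 378, 283 and 294 CPM in old 1 h and 42.2, 56.4, 43.6 and 37.1 CPM in old sham. Its libraries did not overlap between the groups, and the change was 2.76 ± 0.16 (edgeR adjusted p = 1.35e-10). The constitutive Hspa8 was already abundant and rose by 1.27 ± 0.14; per length, it was at 1557 ± 204 TPM in old 1 h and 727 ± 96.4 TPM in old sham, and Hspa1a was at 1036 ± 295 TPM in old 1 h and 13.9 ± 3.13 TPM in old sham (SD, n = 4 each). Hspa4, a nucleotide exchange factor, did not pass the test (0.26 ± 0.10, edgeR adjusted p = 0.0568).

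Of 23 genes of HSP90, the small HSPs and the chaperonins, 11 rose and none fell, with a median of 0.34. This count was 7 without old sham 1, without old sham 2 or without old sham 3. Hspb1, a small HSP that holds unfolded proteins and binds actin, was at 327, 418, 422 and 337 CPM in old 1 h and 70.4, 111, 75.5 and 74.6 CPM in old sham, with no overlap between groups, and rose by 2.18 ± 0.28 (edgeR adjusted p = 1.01e-05). The cytosolic Hsp90aa1 rose by 1.34 ± 0.15 and Hsp90ab1 by 0.57 ± 0.12. The endoplasmic reticulum chaperone Hsp90b1 did not pass the test (0.34 ± 0.15, edgeR adjusted p = 0.108), while its partner Hspa5 (BiP) rose by 1.35 ± 0.15 (edgeR adjusted p = 2.05e-06). In the list of 24 ATF4 and unfolded protein response genes, 13 rose and none fell, and 8 rose without both old 1 h 1 and old sham 4. The integrated stress response factor Atf4 was at 451, 478, 415 and 455 CPM in old 1 h and 213, 225, 176 and 183 CPM in old sham. It rose by 1.17 ± 0.12, and Ddit3 (CHOP) rose by 1.06 ± 0.16.

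**Figure D3:**
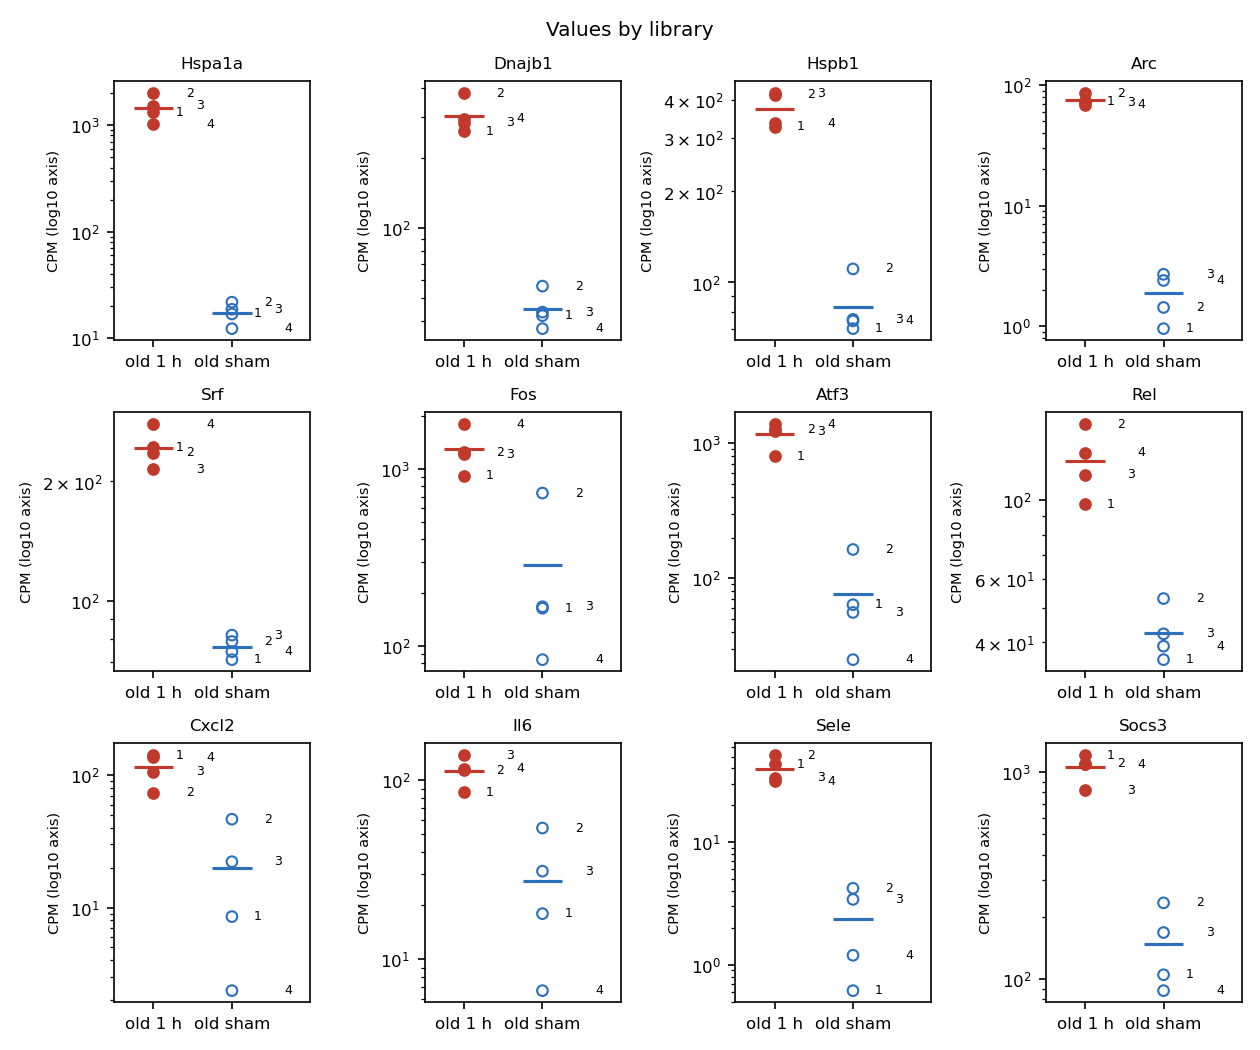
CPM of 12 early response, chaperone and cytokine genes in each library on a log10 axis, old 1 h (filled, left) and old sham (open, right); numbers beside the points are replicate numbers and horizontal lines are group means. Hspa1a and Srf show tight old sham values, while Fos, Cxcl2 and Il6 spread over the old sham libraries, with old sham 2 highest in each.

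Immediate early transcription factors rose. All 13 AP-1 and ATF genes had a change above 0, and 11 rose, with a median of 1.54; leaving out single libraries gave 8 to 11. Arc, an activity-induced gene best known from neurons, was at 73.6, 85.5, 71.8 and 68.7 CPM in old 1 h and 0.955, 1.43, 2.7 and 2.4 CPM in old sham. These values did not overlap, and the change was 5.31 ± 0.38 (edgeR adjusted p = 1.23e-08). Srf, the serum response factor that binds early gene promoters, was at 244, 236, 215 and 279 CPM in old 1 h and 71.1, 79, 82 and 74.5 CPM in old sham, with a change of 1.67 ± 0.09 (edgeR adjusted p = 1.35e-10). The FOS family member Fosl1 was at 27, 54.8, 29 and 23 CPM in old 1 h and 1.2, 1.49, 1.21 and 0.441 CPM in old sham. It rose by 4.97 ± 0.67, and the stress factor Atf3 was at 801, 1271, 1226 and 1383 CPM in old 1 h and 63.5, 163, 55.7 and 24.9 CPM in old sham. It rose by 3.93 ± 0.61. Without old sham 2 the change was 4.61.

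Other early genes were already high in part of the sham libraries. Fos was at 919.8, 1249, 1212 and 1794 CPM in old 1 h and 163, 732, 166 and 83.6 CPM in old sham. The groups did not overlap, but old sham 2 was close to old 1 h 1, and the change of 2.18 ± 0.72 (edgeR adjusted p = 0.0326) did not pass when some libraries were left out. Without old 1 h 2, old 1 h 4, old sham 1, old sham 3 or old sham 4 it did not pass (2.18, 1.96, 1.97, 1.98 and 1.86) and without old sham 2 the change was 3.23. Fosb was at 1245, 1973, 1856 and 2349 CPM in old 1 h and 89.8, 362, 66.2 and 13 CPM in old sham. It rose by 3.81 ± 1.11. For Fosb, without old sham 1 or old sham 3 it did not pass (3.65 and 3.57) and without old sham 2 the change was 5.04. Egr1, whose libraries overlap, was at 984, 1619, 1581 and 2070.2 CPM in old 1 h and 344, 1042, 295 and 147 CPM in old sham and did not pass the test (1.78 ± 0.70, edgeR adjusted p = 0.0706). It passed without old sham 2 (2.58, edgeR adjusted p = 0.0178) and under DESeq2 (1.79, adjusted p = 0.0316). Jund (1.55 ± 0.18), Jun (1.48 ± 0.27), Fosl2 (1.48 ± 0.28) and the small MAF proteins Maff (1.82 ± 0.29) and Mafk (1.54 ± 0.17) rose with tighter values. Of 20 genes of the Egr, Nr4a, Ier and Arc list, 15 rose and none fell, with a median of 1.58, among them the growth regulator Myc (2.15 ± 0.29) and the HSF1 coregulator Ier5 (2.07 ± 0.23).

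The genes that end such signals rose as well. Of 15 MAPK phosphatases and feedback inhibitors, 10 rose and none fell (median 1.14), with the phosphatases Dusp10 (1.70 ± 0.16), Dusp16 (1.30 ± 0.15) and Dusp8 (1.14 ± 0.17) and the EGF receptor inhibitor Errfi1 (1.64 ± 0.26). Of 10 mRNA decay factors, 7 rose and none fell (median 1.00). Among these Noct, a deadenylase-family protein, was at 88.4, 95.8, 77.8 and 67 CPM in old 1 h and 11.5, 17.5, 11.8 and 11.9 CPM in old sham. No library overlapped between groups, and it rose by 2.65 ± 0.29. Zc3h12a (regnase-1), which cleaves cytokine mRNAs, rose by 1.75 ± 0.25, and Btg1, which recruits deadenylases, rose by 1.28 ± 0.17. Zfp36 (tristetraprolin), which destabilises AU-rich mRNAs, was at 1332, 1203, 1263 and 1815 CPM in old 1 h and 456, 880.2, 402 and 285 CPM in old sham. It rose by 1.47 ± 0.44. For Zfp36, without old sham 1, old sham 3 or old sham 4 it did not pass (1.42, 1.37 and 1.27). In the Kruppel-like factor list 6 of 11 rose and 2 fell. Klf6 (1.70 ± 0.15), Klf4 (1.52 ± 0.24) and Klf5 (1.37 ± 0.14) rose, and Klf15, a glucocorticoid-responsive member, fell by 1.44 (SE 0.35). Klf11 fell by 0.54 (SE 0.18). For Klf11, without old 1 h 1, old 1 h 3, old sham 1 or old sham 3 it did not pass (-0.43, -0.54, -0.47 and -0.44).

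NF-kB genes rose nearly as a whole. Of 18 subunits and inhibitors, 15 rose and none fell, with a median of 1.03, and leaving out single libraries gave 14 to 16. Rel (c-Rel) was at 97.3, 163, 118 and 136 CPM in old 1 h and 35.8, 53.1, 42.3 and 39.1 CPM in old sham. It rose by 1.59 ± 0.20 (edgeR adjusted p = 6.94e-06). Its partners Relb (1.22 ± 0.17), Nfkb2 (1.20 ± 0.15) and Rela (0.84 ± 0.09) rose, as did Nfkbia, the inhibitor that NF-kB itself induces, at 659, 503, 630.0 and 611 CPM in old 1 h and 272, 432, 242 and 251 CPM in old sham (change 1.00 ± 0.21). None of these 5 overlapped between groups.

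Promoters of 4 members are shown because they hold the NF-kB motif GGANTTTCC, on either strand, and because their genes rose. They are RefSeq sequences on GRCm38.p6, 250 bases before the start, and the capitals mark the motif: Cxcl2 at chr5:90903649-90903898 (plus strand, motif 96 bases before the start), Cxcl3 at chr5:90785851-90786100 (plus strand, 72 bases), Nfkbia at chr12:55492648-55492897 (minus strand, 2 matches, the first 178 bases before the start) and Nfkb2 at chr19:46305680-46305929 (plus strand, 224 bases before the start of the transcript used, 1 of 3 listed).
Cxcl2: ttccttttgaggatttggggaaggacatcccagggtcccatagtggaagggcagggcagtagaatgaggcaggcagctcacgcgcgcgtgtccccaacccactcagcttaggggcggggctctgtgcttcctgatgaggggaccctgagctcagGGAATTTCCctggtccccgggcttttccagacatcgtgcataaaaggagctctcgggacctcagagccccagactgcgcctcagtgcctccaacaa
Cxcl3: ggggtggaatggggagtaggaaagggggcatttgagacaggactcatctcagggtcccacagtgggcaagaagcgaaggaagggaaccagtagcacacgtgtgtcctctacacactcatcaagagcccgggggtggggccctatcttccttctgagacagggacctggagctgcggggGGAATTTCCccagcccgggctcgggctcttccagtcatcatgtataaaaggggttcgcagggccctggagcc
Nfkbia: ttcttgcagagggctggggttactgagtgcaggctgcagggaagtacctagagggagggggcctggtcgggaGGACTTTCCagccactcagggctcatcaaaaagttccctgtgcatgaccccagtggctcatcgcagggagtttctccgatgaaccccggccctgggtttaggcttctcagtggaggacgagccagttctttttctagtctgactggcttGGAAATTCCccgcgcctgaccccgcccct
Nfkb2: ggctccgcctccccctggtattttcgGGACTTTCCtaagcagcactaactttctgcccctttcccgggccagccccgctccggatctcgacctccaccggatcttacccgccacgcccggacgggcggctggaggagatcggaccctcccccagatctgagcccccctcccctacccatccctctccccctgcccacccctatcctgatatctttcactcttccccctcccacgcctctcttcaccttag
The second match in Nfkbia reads on the other strand. The motif was found in 3 of 6 neutrophil-attracting chemokine promoters (Cxcl1, Cxcl2 and Cxcl3) and 4 of 15 promoters of the NF-kB list. It was in 3.74% of promoters of genes that rose by more than 2-fold, 0.383% of those that fell by more than 2-fold and 1.39% of all genes tested. The AP-1 motif TGACTCA, searched on both strands, was in 10.2% of 588 promoters of genes that rose by more than 2-fold, in 4.60% of 261 of those that fell by more than 2-fold and in 4.48% of 14002 of all genes tested. The cAMP response element TGACGTCA was in 3.40%, 0.766% and 2.64% of the same promoters. A gene with several listed promoters was counted once, and a match is a description of letters, not of binding.

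Some cytokine mRNAs rose. Among 7 neutrophil-attracting chemokines, 3 rose. Cxcl3 was at 16.9, 8.58, 11.9 and 14.2 CPM in old 1 h and 0.185, 1.6, 1.06 and 0 CPM in old sham (4.21 ± 0.87). Cxcl2 was at 141, 73.5, 106 and 137 CPM in old 1 h and 8.54, 46.5, 22.2 and 2.35 CPM in old sham (2.53 ± 0.83). Cxcl5 was at 4.06, 4.45, 12.7 and 1.99 CPM in old 1 h and 0.154, 0.22, 0.273 and 0.42 CPM in old sham (4.38 ± 0.90). The groups did not overlap in any of the 3. For Cxcl3, without old sham 2 the change was 5.05. For Cxcl2, without old 1 h 1, old 1 h 4, old sham 1, old sham 3 or old sham 4 it did not pass (2.40, 2.42, 2.27, 2.57 and 2.14) and without old sham 2 the change was 3.38. For Cxcl5, without old 1 h 3 the change was 3.65. Cxcl1 was at 96.5, 76, 92.7 and 67.6 CPM in old 1 h and 20.6, 49.8, 37.4 and 8.43 CPM in old sham; its groups did not overlap, and the change of 1.52 ± 0.68 did not pass the test (edgeR adjusted p = 0.108). In the IL-6 and colony stimulating factor family 2 of 9 genes rose, against 5 under DESeq2 and 5 when only the groups compared were fitted. Csf3, which encodes G-CSF, the growth factor of neutrophils, was at 9.89, 7.9, 12.6 and 5.95 CPM in old 1 h and 0, 0.579, 0.636 and 0.462 CPM in old sham. It rose by 4.41 ± 0.80 (edgeR adjusted p = 0.000432), and Csf1, which acts on macrophages, rose by 1.27 ± 0.25. Il6 was at 85.7, 114, 138 and 116 CPM in old 1 h and 18, 54.2, 31.1 and 6.68 CPM in old sham. Its groups stayed apart, old sham 4 was lowest and old sham 2 highest of the shams, and the change of 2.05 ± 0.77 did not pass (edgeR adjusted p = 0.059). It passed without old sham 2 (2.61, edgeR adjusted p = 0.0389) and under DESeq2 (2.06, adjusted p = 0.0302). Lif (1.55 ± 0.57, edgeR adjusted p = 0.0523) and Osm (1.79 ± 0.70, edgeR adjusted p = 0.0682) did not pass either; both passed under DESeq2 (adjusted p = 0.0309 and 0.0351), and Lif passed without old sham 3 (1.97, edgeR adjusted p = 0.0337).

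Part of the receptors and signal inhibitors downstream of these cytokines rose. Of 10 genes of the IL-6 family and CSF receptor list 5 rose and 1 fell (median 0.62), 4 to 6 rising with single libraries left out. Of 10 cytokine signalling inhibitors 5 rose and 1 fell (median 0.30), 3 to 6 rising with single libraries left out. The oncostatin M receptor Osmr was at 219.6, 203, 199.8 and 150.4 CPM in old 1 h and 61.6, 78.1, 74.8 and 63.6 CPM in old sham. Its groups stayed apart, and it rose by 1.47 ± 0.21 (edgeR adjusted p = 2.49e-05). Stat3, the transcription factor of this receptor family, was at 651, 586, 545 and 551 CPM in old 1 h and 243, 271, 266 and 251 CPM in old sham. It rose by 1.18 ± 0.13. Socs3, its feedback inhibitor, was at 1206, 1096, 819 and 1092 CPM in old 1 h and 105, 234, 168 and 88.1 CPM in old sham. It rose by 2.82 ± 0.49 (edgeR adjusted p = 0.000262). The leukemia inhibitory factor receptor Lifr fell by 0.43 (SE 0.10).

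The IL-1 and TNF ligands moved in both directions: 6 of 13 rose and 1 fell, and 3 rose without both old 1 h 1 and old sham 4. Il1rn, the IL-1 receptor antagonist, was at 41.6, 38.6, 45.6 and 49.7 CPM in old 1 h and 10.3, 18, 14.7 and 7.88 CPM in old sham. It rose by 1.79 ± 0.47, and without both old 1 h 1 and old sham 4 it did not pass (1.63). Il1b was at 643, 353, 408 and 599 CPM in old 1 h and 115, 283, 185 and 69.1 CPM in old sham. It rose by 1.62 ± 0.59 (edgeR adjusted p = 0.0482). For Il1b, without old 1 h 1, old 1 h 2, old 1 h 3, old 1 h 4, old sham 1, old sham 3 or old sham 4 it did not pass (1.47, 1.74, 1.70, 1.51, 1.48, 1.68 and 1.35). Tnfsf10 (TRAIL), a death ligand, fell by 0.93 (SE 0.22). Of 12 receptors 8 rose and none fell, including the TRAIL receptor Tnfrsf10b (1.67 ± 0.16), the TWEAK receptor Tnfrsf12a (1.82 ± 0.26) and the decoy receptor Il1r2 (2.50 ± 0.54). Il1r2 is also counted among the neutrophil markers. Among 23 CC and other chemokines 7 rose and none fell, with Ccl11 (eotaxin) at 20.5, 32.8, 28.8 and 19.5 CPM in old 1 h and 3.36, 2.64, 4.69 and 7.4 CPM in old sham (2.48 ± 0.37) and Ccl22 at 1.28 ± 0.28; the count was 3 or 4 without old 1 h 1, 2 or 3 or without old sham 1, 3 or 4, and 2 without both old 1 h 1 and old sham 4. In the toll-like receptor and inflammasome list 11 of 19 rose and 1 fell, and 7 rose without old 1 h 1. Casp4 (caspase-11), which senses intracellular endotoxin, was at 73.1, 57.9, 47.8 and 42.1 CPM in old 1 h and 16.5, 16.4, 16.8 and 17.5 CPM in old sham. It rose by 1.72 ± 0.17, Myd88 rose by 1.26 ± 0.16, and Tlr3 fell by 0.74 (SE 0.17).

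Vascular adhesion and clotting genes rose. Sele (E-selectin), made by activated endothelium, was at 43.3, 51.2, 33.5 and 31.4 CPM in old 1 h and 0.616, 4.21, 3.42 and 1.2 CPM in old sham, and Selp (P-selectin) was at 222, 134, 108 and 67.5 CPM in old 1 h and 4.5, 18.5, 20.1 and 5.76 CPM in old sham. Neither overlapped between groups, and the changes were 4.08 ± 0.54 and 3.45 ± 0.46 (edgeR adjusted p = 1.72e-05 and 2.06e-05). Of 13 selectins and adhesion molecules 10 rose and none fell (median 0.88), with Icam1 at 0.65 ± 0.14 and Vcam1 at 0.87 ± 0.22; without both old 1 h 1 and old sham 4 Vcam1 did not pass (0.72). Of the 13, 6 are mainly made by leukocytes, Selplg, Itgal, Itgam, Itgb2 and Itga4 among them; all 6 rose, as did the summed neutrophil markers given above, whose part in the result was not tested. Itgb2 rose by 0.88 ± 0.25. Without old 1 h 1 it did not pass (0.61).

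Of 19 coagulation and fibrinolysis genes 11 rose and none fell (median 1.03), 7 without old 1 h 1 or without old sham 1. Plaur, the urokinase receptor, was at 273, 230.2, 231 and 273 CPM in old 1 h and 60.6, 94.1, 65.8 and 58.4 CPM in old sham. It rose by 1.85 ± 0.21, and the plasminogen activator Plat rose by 1.32 ± 0.17. The AP-1 motif was in 5 of 13 promoters of this list, that of Plaur among them. Thbd (thrombomodulin) did not pass (0.20 ± 0.13, edgeR adjusted p = 0.273). Thbs1 (thrombospondin 1), a matrix protein that binds TGF-beta, was at 3264, 6032, 3844 and 5011 CPM in old 1 h and 556, 947, 861 and 476 CPM in old sham. It rose by 2.68 ± 0.42. The proteoglycan protease Adamts4 was at 223, 242, 305 and 242 CPM in old 1 h and 9.22, 36.9, 27.6 and 8.09 CPM in old sham. It rose by 3.63 ± 0.63 (edgeR adjusted p = 0.000309).

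Part of the capillary markers fell. Of 12 general capillary markers 4 fell and 1 rose (median -0.33), and of 11 aerocyte markers, the capillary cells that face the alveolus, 5 fell and none rose (median -0.30); 3 of these fell without both old 1 h 1 and old sham 4. Tbx2, a transcription factor of aerocytes and lung mesenchyme, was at 131, 122, 124 and 115 CPM in old 1 h and 296, 274, 283 and 283 CPM in old sham. The groups did not overlap, and it fell by 1.21 (SE 0.12, edgeR adjusted p = 3.14e-07). Tmem100, a BMP-dependent endothelial gene, was at 156, 178, 168 and 175 CPM in old 1 h and 403, 421, 367 and 309.5 CPM in old sham. It fell by 1.15 (SE 0.22). Clec14a fell by 0.90 (SE 0.19), and Aplnr, the apelin receptor, by 1.11 (SE 0.28), while Cd93 rose by 0.62 ± 0.16. Without both old 1 h 1 and old sham 4 Cd93 did not pass (0.51), so that none of the general capillary markers rose. Pecam1 (-0.15 ± 0.11, edgeR adjusted p = 0.337) and Kdr (-0.21 ± 0.13, edgeR adjusted p = 0.266) did not pass. In these whole-lung samples fewer cells of a type and less RNA per cell cannot be told apart. Vegfa, which alveolar epithelium makes for the capillaries and which hypoxia is known to induce, was at 560.0, 633, 614 and 777 CPM in old 1 h and 936, 959, 897 and 826 CPM in old sham. It fell by 0.49 (SE 0.11, edgeR adjusted p = 0.00298).

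Alveolar epithelial markers were lower. Of 17 type 1 markers 16 fell and none rose (12.6% of all genes fell), with a median of -0.68; leaving out single libraries gave 15 or 16. Igfbp2 was at 171, 154, 189.9 and 211 CPM in old 1 h and 377, 524, 336 and 377 CPM in old sham and Spock2 at 259.6, 265, 292 and 336 CPM in old 1 h and 548, 702, 488 and 485 CPM in old sham. Neither overlapped, with changes of -1.15 ± 0.20 and -0.95 ± 0.16 (edgeR adjusted p = 0.000237 and 0.000138). The receptor Ager was at 1003, 746, 934 and 1189.9 CPM in old 1 h and 1760.5, 1770.4, 1367 and 1316 CPM in old sham. It fell by 0.68 (SE 0.14), the basement membrane collagen Col4a4 fell by 0.94 (SE 0.16) and the tight junction protein Cldn18 by 0.79 (SE 0.12). Of 16 type 2 markers 6 fell and none rose (median -0.48), against 13 on log2(TPM + 1) and 11 on log2(TPM + 0.1), scales that moved the median of all genes to -0.12 and -0.16. Nkx2-1, the lineage factor of lung epithelium, was at 57.6, 57, 83.9 and 83.8 CPM in old 1 h and 162, 151, 148 and 115 CPM in old sham. No library overlapped between groups, and it fell by 1.03 (SE 0.15, edgeR adjusted p = 3.74e-05). The phosphate transporter Slc34a2 was at 230.0, 518, 693 and 844 CPM in old 1 h and 1407, 1618, 1691 and 1406 CPM in old sham. It fell by 1.42 (SE 0.30), with old 1 h 1 lowest. Sftpc was at 4305, 4691, 7093 and 6639 CPM in old 1 h and 8899.7, 10982, 9909 and 7341 CPM in old sham. It fell by 0.71 (SE 0.18).

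Genes of injured or transitional epithelium were higher. Of 12 such genes 9 rose and 1 fell (median 1.68), and 9 rose whichever library was left out. Sfn (14-3-3 sigma) was at 210.4, 179, 209 and 135 CPM in old 1 h and 18.9, 35.1, 25.1 and 22.7 CPM in old sham and Cldn4, a claudin of stressed alveolar cells, was at 51.4, 54.3, 48.7 and 41.4 CPM in old 1 h and 6.81, 6.34, 5.27 and 7.84 CPM in old sham. The groups stood well apart, and the changes were 2.85 ± 0.23 and 2.89 ± 0.23 (edgeR adjusted p = 4.86e-08 and 4.25e-08). The keratins Krt8 (1.63 ± 0.17), Krt18 (1.62 ± 0.14) and Krt19 (0.93 ± 0.17) rose, and Krt7 was at 219.6, 185, 213 and 239 CPM in old 1 h and 284, 352, 254 and 255 CPM in old sham. It fell by 0.42 (SE 0.10). The EGF receptor ligands Areg (amphiregulin), at 37.2, 50.7, 57.8 and 44.2 CPM in old 1 h and 4.31, 5.56, 6.42 and 3.2 CPM in old sham, and Hbegf, at 164, 179, 149 and 162 CPM in old 1 h and 38.8, 72.1, 42.7 and 42.4 CPM in old sham, rose by 3.29 ± 0.35 and 1.74 ± 0.17, as did Ereg (2.41 ± 0.53). Tgfa fell by 0.47 (SE 0.12), and the receptor Erbb2 (-0.45 ± 0.10) and the LRIG family member Lrig3 (-0.80 ± 0.14) fell too. Egfr did not pass (0.38 ± 0.18, edgeR adjusted p = 0.136).

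Part of the mesothelial markers fell, with old sham 1 highest for those given here. Of 12 markers 6 fell and 1 rose (median -1.53). Chst4, a sulfotransferase gene outside this list and the largest fall by the rule given for Hspa1a, was at 0.249, 0.249, 0.295 and 0.225 CPM in old 1 h and 12.6, 3.11, 4.6 and 1.51 CPM in old sham, Lrrn4 at 2.92, 4.07, 2.23 and 2.67 CPM in old 1 h and 67.2, 16.8, 25 and 6.6 CPM in old sham and Gpm6a at 32.7, 30.1, 28.3 and 38.8 CPM in old 1 h and 111, 73.5, 65.3 and 58.7 CPM in old sham. The groups did not overlap in any of the 3, and the changes were -4.40 ± 0.65, -3.28 ± 0.66 and -1.25 ± 0.18 (edgeR adjusted p = 4.36e-05, 0.00102 and 4.36e-05). Upk3b fell by 3.24 (SE 0.67). For Chst4, without old sham 1 the change was -3.58. For Lrrn4, without old sham 1 the change was -2.44. For Upk3b, without old sham 1 the change was -2.50. Msln (mesothelin) overlapped and did not pass (-1.27 ± 0.52, edgeR adjusted p = 0.0778). It passed without old 1 h 1 (-1.78, edgeR adjusted p = 0.0285), without old sham 4 (-1.51, edgeR adjusted p = 0.0484), without both (-2.001, edgeR adjusted p = 0.0181) and under DESeq2 (-1.26, adjusted p = 0.0465). The pleural content of the pieces taken was not recorded in the labels, and its part in these falls was not tested.

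Old sham 4 lay apart from its group in genes of the larger airways and of heart-type muscle. Bpifa1, a secreted airway protein chosen here after its values were seen, was at 1319, 1229, 826 and 990.1 CPM in old 1 h and 1.85, 0, 1.24 and 428 CPM in old sham, and Myh6 (atrial myosin heavy chain) at 1041, 2006, 1386 and 1113 CPM in old 1 h and 265, 296, 327 and 1326 CPM in old sham. Neither passed the test (3.34 ± 2.41 and 1.32 ± 0.88, edgeR adjusted p = 0.335 and 0.292). Without old sham 4, Bpifa1 passed (10.06, edgeR adjusted p = 0.0393), and Myh6 (2.22, edgeR adjusted p = 0.103) and Reg3g (8.70, edgeR adjusted p = 0.0672) did not. None of the 14 cardiac-type genes rose or fell and all 14 were above 0 (median 1.33); 3 rose without old sham 4. Of 15 club and secretory markers, 1 rose, against 3 without old sham 4 and 3 when only the groups compared were fitted. With all libraries in the fit this was Ltf (lactoferrin), which neutrophil granules also hold, at 412, 138, 108 and 96 CPM in old 1 h and 4.87, 7.41, 4 and 17.2 CPM in old sham (4.48 ± 1.20). For Ltf, without old 1 h 1 or old sham 4 the change was 3.75 and 5.10. Scgb1a1 did not pass (0.10 ± 0.17, edgeR adjusted p = 0.713).

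Of 22 neutrophil markers 21 rose and none fell, with a median of 1.62. Without old 1 h 1 the count was 13, and without both old 1 h 1 and old sham 4 it was 7. The chemokine receptor Cxcr2 was at 277, 93.7, 124 and 176 CPM in old 1 h and 56.2, 61.4, 45.6 and 47.7 CPM in old sham and the calprotectin subunit S100a9 at 3151, 633, 856 and 1261 CPM in old 1 h and 339, 420.3, 321 and 355 CPM in old sham. Old 1 h 1 was highest in both, the groups did not overlap, and the changes were 1.67 ± 0.37 and 2.04 ± 0.56 (edgeR adjusted p = 0.0023 and 0.0105). For S100a9 without old 1 h 1 it did not pass (1.35).

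Granule genes that neutrophils make only while maturing in the marrow were at 384 (Ngp) and 76.5 CPM (Camp) in old 1 h 1, against 2.99 to 6.59 and 0.193 to 1.38 CPM in the other 3 old 1 h libraries and 1.23 to 4.3 and 0 to 1.24 CPM in old sham. The list of neutrophil granule genes is wider and mixes genes of different granule types. Chil3 is also in the alveolar macrophage list and Ltf in the club and secretory list. Of its 8 genes tested 4 rose, but 1 without old 1 h 1 or without old sham 1. The count was 2 without old sham 2, 3 or 4, and 2 under DESeq2. Ngp changed by 5.30 ± 1.53, and without old 1 h 1 or old sham 1 it did not pass (0.95 and 5.08). Camp changed by 5.40 ± 1.84, and without old 1 h 1, old sham 1, old sham 2, old sham 3 or old sham 4 it did not pass (0.36, 5.004, 6.50, 5.0 and 5.48).

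Monocyte and macrophage markers rose in 8 of 21 cases (median 0.57), with Cd14, the endotoxin coreceptor, at 367, 126, 198 and 194 CPM in old 1 h and 36.7, 76.5, 54.9 and 29.6 CPM in old sham (2.16 ± 0.39) and the protease Adam8 at 362, 161, 188 and 222 CPM in old 1 h and 45.4, 69.6, 61.1 and 77.1 CPM in old sham (1.88 ± 0.29). Old 1 h 1 was highest for Cd14 and Adam8, as it was for the summed neutrophil markers. The part of neutrophils in these 2 rises was not tested. The 21 markers summed, Thbs1 among them, were at 7841, 9892, 7863 and 9423 CPM in old 1 h. In old sham they were at 3233, 4403, 4030 and 3501 CPM. Of 16 alveolar macrophage markers 2 fell and none rose, which is near the 12.6% of all genes that fell. With single libraries left out 1 to 3 of the 16 fell. Lymphocyte markers rose in part: 7 of 20 T cell markers (4 without old 1 h 1) and 8 of 17 NK and cytotoxic markers (4 to 6 with single libraries left out). Ccr7, the receptor that guides naive T cells and dendritic cells, was at 29.8, 72.2, 42.1 and 51.8 CPM in old 1 h and 18.9, 21.8, 25.3 and 23 CPM in old sham. It rose by 1.14 ± 0.20. The costimulator Cd28 was at 21.5, 18.6, 19.2 and 16.2 CPM in old 1 h and 9.4, 9.34, 8.63 and 10.6 CPM in old sham. It rose by 0.99 ± 0.23, and granzyme B (Gzmb) was at 13.1, 6.03, 10.2 and 6.37 CPM in old 1 h and 3.36, 2.45, 1.94 and 2.73 CPM in old sham. It rose by 1.76 ± 0.39. Itga4, the alpha 4 integrin of lymphocytes and monocytes, was at 191, 193, 141 and 176 CPM in old 1 h and 92, 98.3, 96 and 117 CPM in old sham. Its groups stayed apart, and it rose by 0.80 ± 0.14. Among 19 B and plasma cell markers Xbp1 alone rose (0.73 ± 0.16); the immunoglobulin genes varied within groups, with Ighg2c at 1499, 144, 219 and 33.9 CPM in old 1 h and 9.55, 3.61, 139 and 112 CPM in old sham.

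Stress programmes beyond the chaperones were mixed. Of 24 hypoxia-inducible genes 11 rose and 2 fell. The glucose transporter Slc2a1 was at 130.4, 123, 108 and 114 CPM in old 1 h and 32.8, 36, 34.3 and 41.9 CPM in old sham (1.71 ± 0.23), hexokinase Hk2 rose by 1.45 ± 0.18 and the vasodilator peptide Adm was at 27, 16.7, 38 and 17.7 CPM in old 1 h and 4.28, 6.8, 4.54 and 7.25 CPM in old sham (2.11 ± 0.38), while Vegfa (above) and the oxygen sensor Egln1 (-0.26 ± 0.07) fell. The count that rose was 6 without old 1 h 1 and 7 without old sham 1, 2 or 3, and 4 without both old 1 h 1 and old sham 4. Of 18 NRF2 targets 7 rose and none fell, with sulfiredoxin Srxn1 (1.49 ± 0.19), Txnrd1 (0.96 ± 0.13) and Hmox1, at 109.7, 110.3, 102 and 79.8 CPM in old 1 h and 36, 32.7, 54.5 and 37.5 CPM in old sham (1.32 ± 0.26); the ferritin genes Fth1 (0.30 ± 0.14, edgeR adjusted p = 0.115) and Ftl1 (0.24 ± 0.12, edgeR adjusted p = 0.156) did not pass. Metallothioneins Mt1, at 506, 489, 455 and 430.4 CPM in old 1 h and 83.7, 132, 87.4 and 72.9 CPM in old sham, and Mt2 rose by 2.32 ± 0.43 and 2.50 ± 0.44, and the zinc importer Slc39a8 fell by 0.73 (SE 0.16).

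Cholesterol synthesis and growth genes rose. Of 18 cholesterol and fatty acid synthesis genes 11 rose and 1 fell (median 0.66), 11 to 13 whichever library was left out. Hmgcs1, the entry enzyme of the pathway, was at 206, 224, 234 and 248 CPM in old 1 h and 81.7, 97.3, 100.2 and 96.2 CPM in old sham. Its groups did not overlap, and it rose by 1.28 ± 0.15 (edgeR adjusted p = 2.57e-06). Cyp51, a sterol demethylase, rose by 1.11 ± 0.15. Scd2 fell by 0.55 (SE 0.17). For Scd2, without old 1 h 1, old 1 h 2, old sham 1 or old sham 2 it did not pass (-0.44, -0.47, -0.52 and -0.48). Among 20 polyamine and nucleolar genes 11 rose and none fell, and 7 rose without both old 1 h 1 and old sham 4. Odc1, the first enzyme of polyamine synthesis, was at 411, 423, 362 and 369 CPM in old 1 h and 124, 139.8, 138 and 106 CPM in old sham. It rose by 1.62 ± 0.16, and Sat1, which breaks polyamines down, rose by 1.33 ± 0.15. The actin genes Actb (0.83 ± 0.11) and Actg1 (1.08 ± 0.11), targets of SRF, rose too.

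Part of the Notch and Wnt genes fell. Of 20 Notch and Wnt response genes 7 fell and 2 rose. Hey1, a Notch target, was at 18.4, 29.5, 29.4 and 26.9 CPM in old 1 h and 65.6, 70.6, 65.3 and 51.2 CPM in old sham, the ligand Wnt3a at 3.84, 3.42, 4.26 and 6.91 CPM in old 1 h and 15.8, 17.6, 14.4 and 11.3 CPM in old sham and the Wnt target Axin2 at 15.4, 13.9, 15 and 14.1 CPM in old 1 h and 25.2, 25.1, 24.5 and 22.4 CPM in old sham. None of the 3 overlapped, with changes of -1.28 ± 0.19, -1.68 ± 0.30 and -0.73 ± 0.11 (edgeR adjusted p = 3.88e-05, 0.00032 and 7.61e-05); Notch1 itself rose by 0.53 ± 0.12. Transcriptional regulators were also among the largest falls, with Sall2 at 2.92, 4.23, 4.49 and 3.25 CPM in old 1 h and 12.9, 13.4, 15.5 and 12.3 CPM in old sham (-1.86 ± 0.15), Meox2 at -1.63 ± 0.26, the Polycomb protein Cbx2 at -1.64 ± 0.20 and Zfp763 at -1.70 ± 0.18.

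This was followed over gene families defined by symbol alone, a choice made after the values were seen. Of 370 genes named Zfp plus a number, most of which encode zinc finger proteins, 176 fell (47.6%, against 12.6% of all genes) and 25 rose (6.76%), with a median of -0.44. The count that rose was 15 without old sham 1, 16 without both old 1 h 1 and old sham 4 and 13 on either TPM scale. The count that fell was 158 to 166 with single libraries left out. Of 17 Hox genes, which encode homeobox factors of body position, 10 fell and none rose (median -0.74), 9 or 10 with single libraries left out and 5 without both old 1 h 1 and old sham 4. Hoxb3 was at 5.58, 5.26, 7.53 and 5.59 CPM in old 1 h and 11, 13.1, 13.2 and 12.6 CPM in old sham and Hoxa5 at 19.3, 16.1, 23 and 21.3 CPM in old 1 h and 37.7, 34.7, 36.9 and 20.8 CPM in old sham. The groups did not overlap for Hoxb3 and did for Hoxa5, where old sham 4 lay within the old 1 h range, and the changes were -1.06 ± 0.18 and -0.71 ± 0.20. For comparison, of 87 cytosolic ribosomal protein genes 2 rose and none fell (median 0.08), with 0 to 3 that rose when single libraries were left out and 9 under DESeq2.

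**Figure D4:**
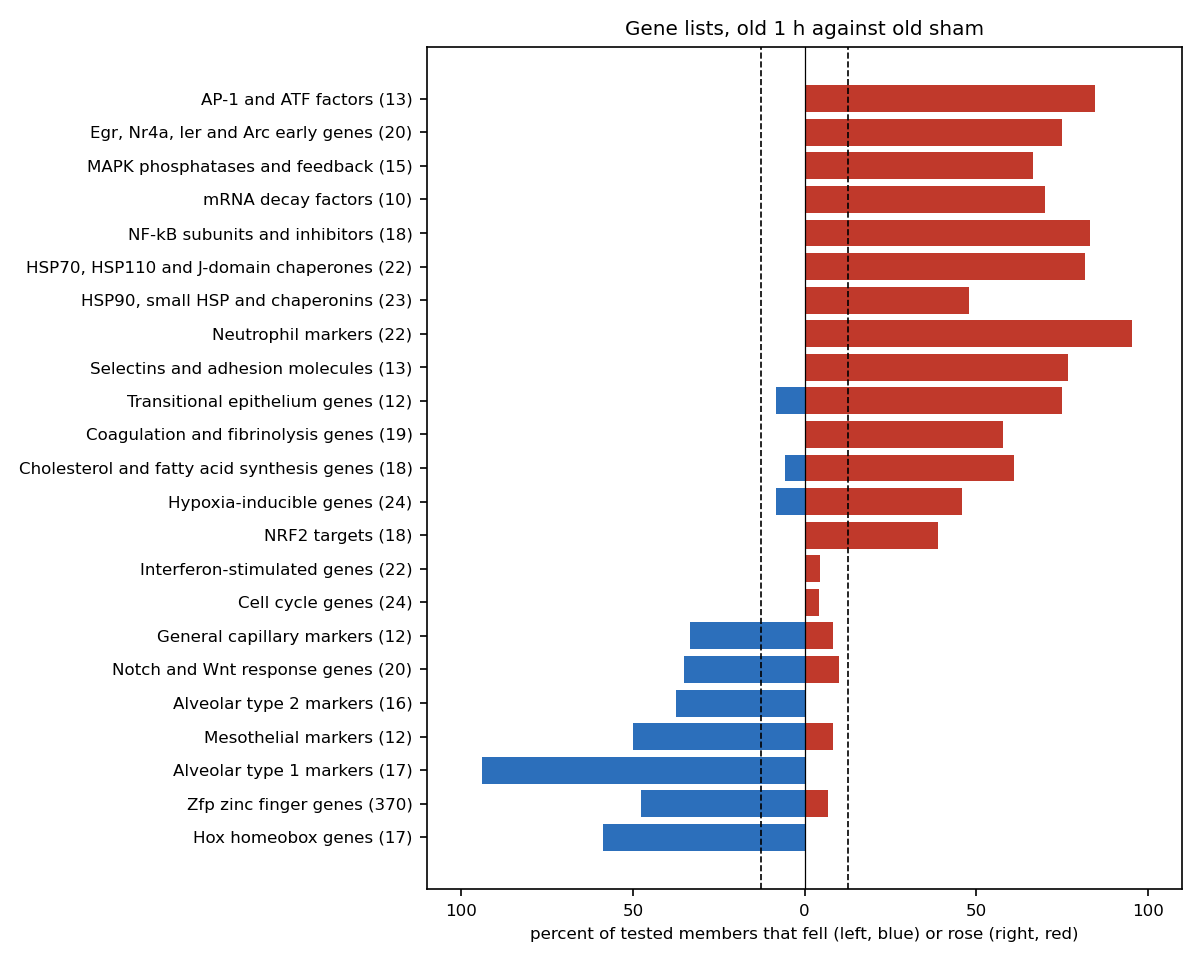
Share of the tested members of each list or family that rose (red, to the right) or fell (blue, to the left) in old 1 h against old sham lungs, with the number of members tested in parentheses; the dashed lines are the 12.6% of all genes that rose and the 12.6% that fell. Early response, chaperone, NF-kB, adhesion and neutrophil lists lie to the right, and type 1, zinc finger and Hox genes lie to the left.

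In some lists not counted above the share that rose was larger than the 12.6% over all genes. Falls in them were near or below the 12.6% of all genes that fell. Of 16 glucocorticoid-induced genes 8 rose and none fell, and of 22 TGF-beta and BMP response genes 9 rose and 1 fell. Of 19 YAP and SRF targets 9 rose and 3 fell, and of 20 p53 targets 6 rose and 2 fell. With single libraries left out, 6 to 8, 6 to 8, 7 to 10 and 6 or 7 of these rose. Few genes passed the test in the interferon, cell cycle, mitochondrial and clock lists. Of 22 interferon-stimulated genes Mx2 alone rose (0.87 ± 0.30; without old 1 h 2, old 1 h 3, old sham 2, old sham 3 or old sham 4 it did not pass (0.75, 0.79, 0.95, 0.85 and 0.72)). Of 24 cell cycle genes 1 rose, Pcna (0.50 ± 0.11), and none fell (median -0.04). None of the 13 mitochondrial genome mRNAs passed the test, with changes of -0.06 to 0.13, and mitochondrial reads were 3.53% ± 0.51 of the total in old 1 h and 3.71% ± 0.39 in old sham libraries (SD, n = 4 each). Of 18 clock genes 3 rose and none fell, but 2 fell without old 1 h 1, 3 with the replicate block and 5 on log2(TPM + 1). Those that rose were Nfil3 (2.34 ± 0.36), Bhlhe40 (1.57 ± 0.37) and Cry1 (1.15 ± 0.37; without old 1 h 1, old sham 1, old sham 3 or old sham 4 it did not pass (0.79, 1.09, 1.19 and 1.12)). The clock gene Arntl, chosen after its values were seen, was at 5.02, 10.9, 42.7 and 13.2 CPM in old 1 h and 7.3, 5.45, 4.57 and 11.4 CPM in old sham, and its output gene Dbp at 79.2, 65.6, 3.93 and 66.1 CPM in old 1 h and 136, 130.3, 172 and 97.7 CPM in old sham; old 1 h 3 stood apart from the other old 1 h libraries in both. Arntl did not pass, with 1.32 ± 0.60 over all libraries (edgeR adjusted p = 0.117) and 0.42 without old 1 h 3, and passed without both old 1 h 1 and old sham 4 (1.94, edgeR adjusted p = 0.0453). Tef did not pass (-0.86 ± 0.32, edgeR adjusted p = 0.0509) and passed without old 1 h 1 (-1.14, edgeR adjusted p = 0.019) and without both (-1.21, edgeR adjusted p = 0.0212).

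The same question was asked of young lungs, with their own 4 sham libraries, where 41.3% of genes changed at 1 h (21.2% rose and 20.1% fell). The change differed between ages for 3451 genes (17.5%): it was higher in old lungs for 1588 (8.07%) and lower for 1863 (9.46%). This difference followed the GC content of the transcripts (Spearman's rho -0.529 across 17994 genes), and the young change did so by itself (rho 0.45). With the GC trend removed 511 genes were higher and 731 lower, and the differences below, other than those of the mitochondrial mRNAs, are given in both forms. Hspa1a rose by 6.39 ± 0.34 in old and 7.26 ± 0.36 in young lungs, and the difference did not pass (-0.87 ± 0.39, edgeR adjusted p = 0.133; -0.55 with the GC trend removed, edgeR adjusted p = 0.448). Fos changed by 2.18 ± 0.72 in old and 4.17 ± 0.79 in young lungs (-1.996 ± 0.99, edgeR adjusted p = 0.183; -1.78 with the GC trend removed, edgeR adjusted p = 0.331).

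Some genes differed in both forms. Itga4 rose by 0.80 ± 0.14 in old lungs and was at -0.70 ± 0.14 in young lungs, a difference of 1.498 ± 0.20, edgeR adjusted p = 0.000238, and 1.25 with the GC trend removed, edgeR adjusted p = 0.00167. Cd28 was at 0.99 ± 0.23 in old and -0.72 ± 0.24 in young lungs, a difference of 1.72 ± 0.33, edgeR adjusted p = 0.00169, and 1.30 with the GC trend removed, edgeR adjusted p = 0.0175. Krt7 was at -0.42 ± 0.10 in old and 0.57 ± 0.10 in young lungs (-0.99 ± 0.15, edgeR adjusted p = 0.000389, and -0.72 with the GC trend removed, edgeR adjusted p = 0.00854). The cell cycle inhibitor Cdkn1b was at 0.09 ± 0.13 in old and -1.13 ± 0.13 in young lungs (1.22 ± 0.18, edgeR adjusted p = 0.000371, and 0.92 with the GC trend removed, edgeR adjusted p = 0.00378). The extracellular matrix gene Matn4 was at -0.76 ± 0.13 in old and 0.66 ± 0.13 in young lungs (-1.42 ± 0.19, edgeR adjusted p = 0.000157, and -1.12 with the GC trend removed, edgeR adjusted p = 0.00147).

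For type 1 markers the form mattered. In old lungs 16 of 17 fell; in young lungs 3 fell and 1 rose (median -0.20), and the change was lower in old than in young lungs for 6, or 3 with the GC trend removed. Cldn18 was at -0.79 ± 0.12 in old and -0.12 ± 0.12 in young lungs (-0.67 ± 0.17, edgeR adjusted p = 0.011, and -0.64 with the GC trend removed, edgeR adjusted p = 0.0341). Ager was at -0.68 ± 0.14 in old and 0.06 ± 0.14 in young lungs, which passed as deposited (-0.74 ± 0.19, edgeR adjusted p = 0.0119) and not with the trend removed (-0.45 with the GC trend removed, edgeR adjusted p = 0.185). The NF-kB subunit Rel was at 1.59 ± 0.20 in old and 0.42 ± 0.19 in young lungs (1.18 ± 0.27, edgeR adjusted p = 0.00556; 0.77 with the GC trend removed, edgeR adjusted p = 0.085), and Hmgcs1 at 1.28 ± 0.15 and 0.41 ± 0.14 (0.87 ± 0.20, edgeR adjusted p = 0.00597; 0.64 with the GC trend removed, edgeR adjusted p = 0.0517).

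In the NK and cytotoxic list 8 of 17 rose in old lungs, while none rose and 3 fell in young lungs, and the change was higher in old lungs for 6, or 3 with the GC trend removed. Of the 13 mitochondrial mRNAs, none passed the test in old lungs, 12 fell in young lungs (median -1.07), and the change was higher in old lungs for 11. COX1, a cytochrome oxidase subunit, was at 0.09 ± 0.14 in old and -0.65 ± 0.14 in young lungs (0.75 ± 0.19, edgeR adjusted p = 0.0104), and ND1, a complex I subunit, was at 0.07 ± 0.22 in old and -1.54 ± 0.22 in young lungs (1.61 ± 0.31, edgeR adjusted p = 0.00165). Mitochondrial reads were 1.33% ± 0.19 of the total in young 1 h and 2.86% ± 0.33 in young sham libraries (SD, n = 4 each). These 13 genes had no GC content assigned, so the correction did not act on them. Whether their fall in young lungs goes with the library-wide GC difference between young 1 h and young sham was not tested.

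**Figure D5:**
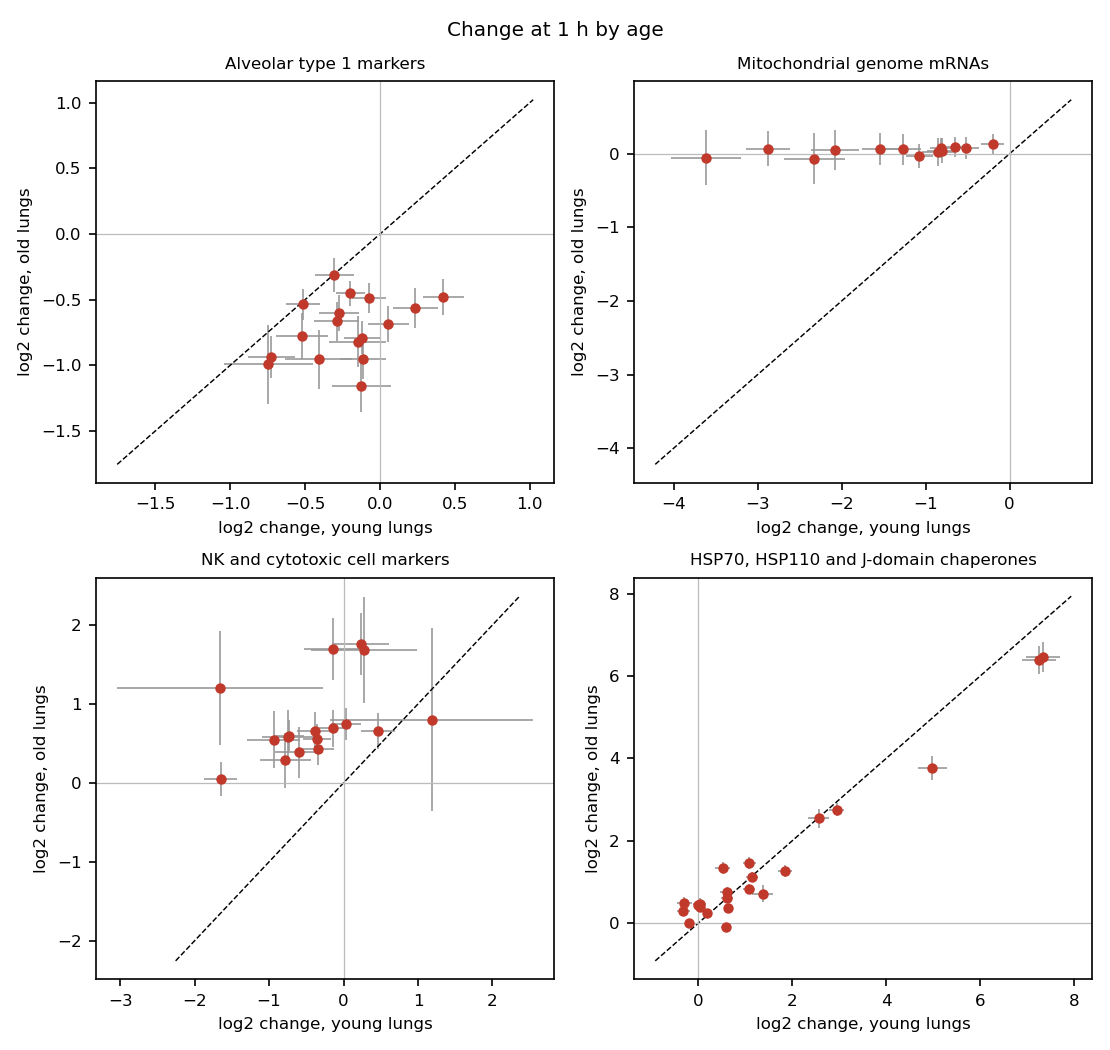
Log2 change at 1 h in old lungs (vertical axis) and in young lungs (horizontal axis) for the members of 4 lists, each with its SE as bars; the dashed line marks equal changes. Most type 1 markers lie below the line, the mitochondrial mRNAs lie above it near 0 in old lungs, and most chaperones lie near it.

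Old lungs after 1 day share the same 4 sham libraries, so their values are set beside those at 1 h and not tested against them (20.0% of genes rose and 16.3% fell at 1 day). Hspa1a was at 6.39 ± 0.34 at 1 h and 0.83 ± 0.28 at 1 day, Arc at 5.31 ± 0.38 and 0.59 ± 0.36, and Atf3 at 3.93 ± 0.61 and -0.63 ± 0.55. Csf3 was at 4.41 ± 0.80 and 4.75 ± 0.81, Adamts4 at 3.63 ± 0.63 and 3.66 ± 0.63, and Cxcl3 at 4.21 ± 0.87 and 6.10 ± 0.91. Of the 13 AP-1 and ATF genes 11 rose at 1 h and 3 at 1 day, of the 22 HSP70 list genes 18 and 6, and of the 17 type 1 markers 16 fell at 1 h and 13 at 1 day. Of the 370 Zfp genes 176 fell at 1 h and 42 at 1 day.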

How the data were processed

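Whole-lung mRNA was sequenced from a stranded library kit, per the labels' protocols. The submitters' processing notes name HISAT2, StringTie and the mm10/GRCm38 build, with no versions. The authors deposited 1 table of 129299 RefSeq transcripts with estimated counts, FPKM and TPM for 24 libraries. The deposited estimated counts are whole numbers that equal FPKM times transcript length times a constant, rounded up, so they are not tallies of reads. FPKM and TPM are the authors' normalized values, per the file headers.

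Estimated counts were summed by gene symbol (45777 symbols). edgeR 4.0.16 in R 4.3.3 fitted all 24 libraries as 6 group means (filterByExpr with a minimum count of 10, TMM factors 0.8805 to 1.092, robust quasi-likelihood F test, Benjamini-Hochberg adjustment over 19690 genes, threshold 0.05). The biological coefficient of variation was 23.2%. The SE is the log2 change divided by the root of F. Totals of 27850677 to 44504824 estimated reads a library set the precision. No 2 libraries held identical counts. Counts were simulated from the means and spread of all 24 libraries (19414 genes), with 50 genes changed in old 1 h at each size. Of these, 48% changed by 1.5-fold, 80% by 2-fold and 98% by 4-fold were recovered. Far more genes were called in the data, so these shares describe the simulation only.

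Alternatives were DESeq2 1.42.0, other filters, limma 3.58.1 on log2(TPM + 1) and log2(TPM + 0.1), a replicate block, single libraries left out and, chosen after seeing the data, old 1 h 1 and old sham 4 left out together. The members and lists were chosen with earlier results of these data known. Genes were named by rule: the 15 largest rises and 15 largest falls without overlap (5 CPM or more in whichever group was higher), list members chosen by p, by level or by a direction against the rest, and all members of short lists. Promoters and gene names came from RefSeq tables on GRCm38.p6; motifs were searched in the 250 bases before each start. Some genes that the rule names are not reported here.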

Additional observations from a re-analysis of the deposited data

Results flagged for a closer look

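Among 348 sets of 4 libraries (each gene named, in each group), 23 had 1 library far from the other 3; chance gives about 1 in 20. Of these, 8 were in old sham 2 and 7 in old 1 h 1. In old sham 2, these were Btg1 at 240.4 CPM, Fos at 732 CPM, Hbegf at 72.1 CPM, Hspb1 at 111 CPM, Mafk at 113 CPM, Nfil3 at 17.0 CPM, Nfkbia at 432 CPM and Noct at 17.5 CPM. In old 1 h 1, these were Camp at 76.5 CPM, Cdkn1b at 84.2 CPM, Cry1 at 57.5 CPM, Ighg2c at 1499 CPM, Krt18 at 354 CPM, Ltf at 412 CPM and Ngp at 384 CPM. In old sham 4, Bpifa1 stood at 428 CPM, Myh6 at 1326 CPM and Reg3g at 20.9 CPM. Single values stood apart for Ccl22 in old 1 h 2 (69.6 CPM), Egfr and Hoxb3 in old 1 h 3 (36.7 and 7.53 CPM), Slc39a8 in old 1 h 4 (174 CPM) and Itgb2 in old sham 1 (119 CPM).

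The change at 1 h differed between old and young lungs by the interaction test, old minus young on the log2 scale, for Ager (-0.74), Cldn18 (-0.67), Krt7 (-0.99), Matn4 (-1.42), COX1 (0.75), ND1 (1.61), Cd28 (1.72), Cdkn1b (1.22), Hmgcs1 (0.87), Itga4 (1.498) and Rel (1.18). With the GC trend removed Ager, Hmgcs1 and Rel no longer passed.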

How the results depend on the processing

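The counts of genes held within 1.5 times under DESeq2, its size factors, both other low-count filters, the fit of only the groups compared and either replicate block. On log2(TPM + 1), 5097 genes were lower, 494 rose and 188 fell by more than 2-fold, and on log2(TPM + 0.1), 1601 were higher, 4962 lower and 663 fell by more than 2-fold; these scales moved the median of all genes to -0.12 and -0.16. The difference between ages was lower in old lungs for 1021 and 1009 genes on these scales, and with the GC trend removed it was higher for 511 and lower for 731. Leaving out single libraries gave 1839 to 2309 higher and 1930 to 2360 lower genes, 671 to 963 and 305 to 400 beyond 2-fold, and 1237 to 1632 and 1291 to 1721 for the difference between ages. Without both old 1 h 1 and old sham 4, 1841 were higher and 1842 lower.

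Same-numbered libraries did not deviate together (correlations -0.13, -0.14, -0.04 and -0.18). The labels do not say whether the numbers stand for pairs or batches, which these correlations cannot decide. With the replicate block 2395 were higher and 2447 lower, and 2001 and 2071 with only the compared groups. Changes near 0 turned sign. COX1 was -0.081 on both TPM scales and -0.0161 to 0.143 with single libraries left out. Cdkn1b was -0.0896 and -0.0912 on the TPM scales, -0.0849 without both libraries and -0.0524 to 0.135 with single ones left out. ND1 was -0.0968 and -0.0969 on the TPM scales and -0.0400 to 0.117 with single libraries left out. Scgb1a1 was -0.0518 on both. The cause of these shifts was not tested.

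On log2(TPM + 1) and log2(TPM + 0.1), 8 general capillary markers fell on each, and the counts that rose were 7 and 6 hypoxia-inducible genes, 4 and 4 T cell markers, 4 and 3 NK and cytotoxic markers, 7 and 7 toll-like receptor and inflammasome genes, 8 and 8 ATF4 and unfolded protein response genes and 7 and 7 polyamine and nucleolar genes. Kdr and Pecam1 were lower with a call on both. When only the groups compared were fitted, Cxcl1, Fth1 and Hspa4 passed, and interferon-stimulated genes that rose numbered 5; they numbered 4 under DESeq2, 0 on either TPM scale and 0 to 2 with single libraries left out. With the replicate block and only the compared groups, Aplnr, Hoxa5, Krt7 and Sftpc did not pass.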
